A study of Homo sapiens with 4 samples.

Results

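The genes described here are 46 genes of the endoplasmic reticulum (ER) that sense misfolded protein, fold newly made protein or remove what fails to fold. They were chosen by symbol from the pathway's known components, with earlier results of these data known. All 46 are among the 11597 genes that the authors' deposited table lists. By role they are 6 sensors and transcription factors, 11 chaperones with their J-domain and lectin partners, 11 disulfide enzymes, 5 other folding factors and 13 genes of ER-associated degradation.

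The measurement was made in MOLM13, an acute myeloid leukaemia cell line of monocytic type, to ask how the antiproliferative adaptor BTG2 affects mRNA stability. The groups were 2 libraries of cells overexpressing a BTG2 cDNA (genotype labelled BTG2 OE) and 2 of control cells (genotype labelled WT) that received the empty vector. Both groups went through the same lentiviral infection with an EF1α-driven vector that also encodes puromycin resistance and ZsGreen, and RNA was taken at day 3, so the control shares the infection, the vector and its markers. The labels give both groups a spin at 32 °C and 1500 RCF for 60 min, polybrene at 5 µg per mL and 10% serum. No step of selection or sorting is named, so cells that the virus did not reach may be in both groups. All cells are of 1 line, and the labels do not say whether the libraries of a group came from separate cultures, so a p-value here covers the spread between these libraries, which may be technical.

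Proteins that enter the secretory pathway fold in the ER with the help of Hsp70 and Hsp90 family chaperones, the lectins calnexin and calreticulin, and enzymes that form and shuffle disulfide bonds. When unfolded protein builds up, the sensors IRE1 (encoded by ERN1), ATF6 and PERK set off the unfolded protein response: IRE1 splices XBP1 mRNA into the form that encodes an active transcription factor, and ATF6 is cut to release another. Both factors act on ER stress elements in the promoters of chaperone and degradation genes. Proteins that stay misfolded are drawn back to the cytosol through a membrane complex built on SEL1L and the ubiquitin ligase HRD1 (encoded by SYVN1), and are extracted by the ATPase VCP for the proteasome.

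The promoter elements themselves are shown first, because several of the genes below are known targets of the factors that bind them. RefSeq promoter windows (GRCh38.p14, 250 bases before to 50 bases after a start) were found for 43 of the 46 genes, all but DERL1, DERL3 and PDIA3. They were searched on both strands for the ER stress element (CCAAT, any 9 bases, CCACG), for the ER stress element II (ATTGG, any single base, CCACG) and for the unfolded protein response element TGACGTGG. The ER stress element was present in 8 of the 43 genes (18.6%), against 0.0916% of 27305 genes with a promoter window. Among listed genes with a window the share was 0.177%. An excess is built into the list, since several of its genes are known targets of the factors that bind these elements. Each match is printed 5′ to 3′ on the strand that reads CCAAT first, with the element in capitals and its 5 flanking bases on each side in lower case.

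CALR: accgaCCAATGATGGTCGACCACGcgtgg
XBP1: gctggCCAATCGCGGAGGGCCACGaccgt
HSPA5: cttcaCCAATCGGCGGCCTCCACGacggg
PDIA6: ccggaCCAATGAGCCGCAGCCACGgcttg
CANX: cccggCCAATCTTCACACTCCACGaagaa
CRELD2: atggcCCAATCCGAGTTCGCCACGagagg
ERO1B: ggcggCCAATGAGGCGGGACCACGcgggc
HSP90B1, farther match: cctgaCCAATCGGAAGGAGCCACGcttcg
HSP90B1, nearer match: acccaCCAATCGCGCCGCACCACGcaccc

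These lie at chr19:12938379-12938407 (minus strand as printed) for CALR, chr22:28800598-28800626 (minus) for XBP1, chr9:125241386-125241414 (minus) for HSPA5 and chr2:10812848-10812876 (minus) for PDIA6. The others lie at chr5:179698773-179698801 (plus) for CANX, chr22:49918549-49918577 (minus) for CRELD2, chr1:236282178-236282206 (plus) for ERO1B, and chr12:103930211-103930239 (plus) and chr12:103930316-103930344 (minus) for HSP90B1. The match lies 34 bases upstream of the RefSeq start in XBP1, 48 bases in HSPA5 and 207 bases in CALR.

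The ER stress element II was present in 3 of the 43 genes (6.98%), against 0.0696% of all genes with a window (listed genes: 0.122%). Its matches are printed with 9 flanking bases on each side and lie at chr16:56932016-56932044 (plus) for HERPUD1, chr22:21642105-21642133 (minus) for SDF2L1, and chr11:119057265-119057293 and chr11:119057371-119057399 (both plus) for HYOU1.

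HERPUD1: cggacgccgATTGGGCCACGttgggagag
SDF2L1: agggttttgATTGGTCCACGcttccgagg
HYOU1, nearer match: cgcgtactcATTGGACCACGtcccaggcc
HYOU1, farther match: cggcctgggATTGGACCACGtcacggggc

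The shorter unfolded protein response element was present in 5 of the 43 genes (11.6%), against 0.927% of all genes with windows (listed genes: 1.13%). It is shown with 10 flanking bases on each side for TXNDC5 (chr6:7910152-7910179, minus), VCP (chr9:35072797-35072824, minus) and HYOU1 (chr11:119057376-119057403, minus). The other 2 carriers were DNAJC10 and TXNDC11. In HYOU1 the element overlaps the farther ER stress element II on the opposite strand.

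TXNDC5: cactggcggcTGACGTGGcgctcggcgg
VCP: tgcggccaatTGACGTGGcgttactagg
HYOU1: gctggccccgTGACGTGGtccaatccca

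For CALR, the most abundant of these genes, the upstream stretch chr19:12938359-12938577 (plus strand, 219 bases, 61.2% G and C) is printed up to the first annotated exon base, with the element in capitals as it reads on this strand.

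CALR upstream: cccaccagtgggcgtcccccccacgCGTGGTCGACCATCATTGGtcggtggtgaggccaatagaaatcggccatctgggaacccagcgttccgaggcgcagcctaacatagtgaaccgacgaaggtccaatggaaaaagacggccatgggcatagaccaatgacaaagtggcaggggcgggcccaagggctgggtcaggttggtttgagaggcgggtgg

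A match is only a match of letters in this window. Genes with the element both changed and did not, as described for each below.

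A limit of the data bears on every value that follows. The authors' deposited table gives per gene a mean normalized count over the libraries, a log2 fold change (positive where BTG2 libraries were higher), its standard error (SE) and an adjusted p, and values per library were not analysed here. A gene is called changed where the authors' adjusted p is under 0.05, and 95% intervals are the deposited fold change with its SE under a normal reference. The overexpressed gene served as the check of the labels: BTG2 was 32.3-fold higher in BTG2 libraries by the authors' deposited table (log2 5.01, SE 0.09). Of 15 myeloid markers 10 were listed, with mean counts from 71.6 to 18566, and all 4 genes of the KMT2A programme. Of these 4, PBX3 (log2 0.45, SE 0.12) and HOXA9 (log2 0.53, SE 0.17) were called higher in the authors' deposited table. Of markers of other cells, 0 of 5 for T cells and 0 of 6 for erythroid cells and megakaryocytes were listed. Of 5 for epithelial and packaging cells KRT18 and KRT8 were listed, at mean counts of 421 and 58.5 and log2 fold changes of -0.24 and -0.48, neither called, in the authors' deposited table. Of 5 for B cells PAX5 was listed, at a mean count of 53.1. PAX5 was called lower by the authors' deposited test, at a log2 fold change of -9.28 (SE 1.47, adjusted p = 2.38e-08). Of the 5 plasma cell markers, a cell type rich in ER, only PRDM1 was listed, at 29.6. Of the 10 myeloid markers 6 passed the test, CTSG, MPO, LYZ, CEBPA and AZU1 lower and FLT3 higher, and the part of any of these marker genes in the values of the ER genes was not tested.

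A group of 7 ER genes was called lower with BTG2. The nearest to a call the other way was VCP, at 0.24 (adjusted p = 0.0546 by the authors' deposited test). Of the 46 genes, 7 were called lower (15.2%) and 0 higher in the authors' deposited table. The background over all listed genes was 4.47% lower (518 genes) and 3.64% higher (422), and recentring on the median abundant gene, which subtracts the median log2 fold change of -0.03 of genes with a mean count of 151 or more, turned this split to 433 and 500. At an unadjusted p under 0.05 the authors' deposited test marked 9 of the 46 as lower (19.6%) and 1 as higher, against 9.64% and 7.92% of all listed genes. These shares are a description only, since the genes were chosen with earlier results of these data known. The falls took in genes from each of the 5 roles: the transcription factor XBP1, the chaperones CALR and HSPA13, the disulfide enzyme TXNDC5, the prolyl isomerase PPIB, and HERPUD1 and EDEM1 of the degradation pathway. The other 39 genes did not pass, and the median log2 fold change of all 46 was -0.06, against 0.00 over all listed genes and -0.03 over the more abundant of them (mean count of 151 or more). Most of the list was thus not called, and 27 of the 46 fold changes were negative (58.7%), against 49.9% of all listed genes and 55.7% of the more abundant ones.

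**Figure D1:**
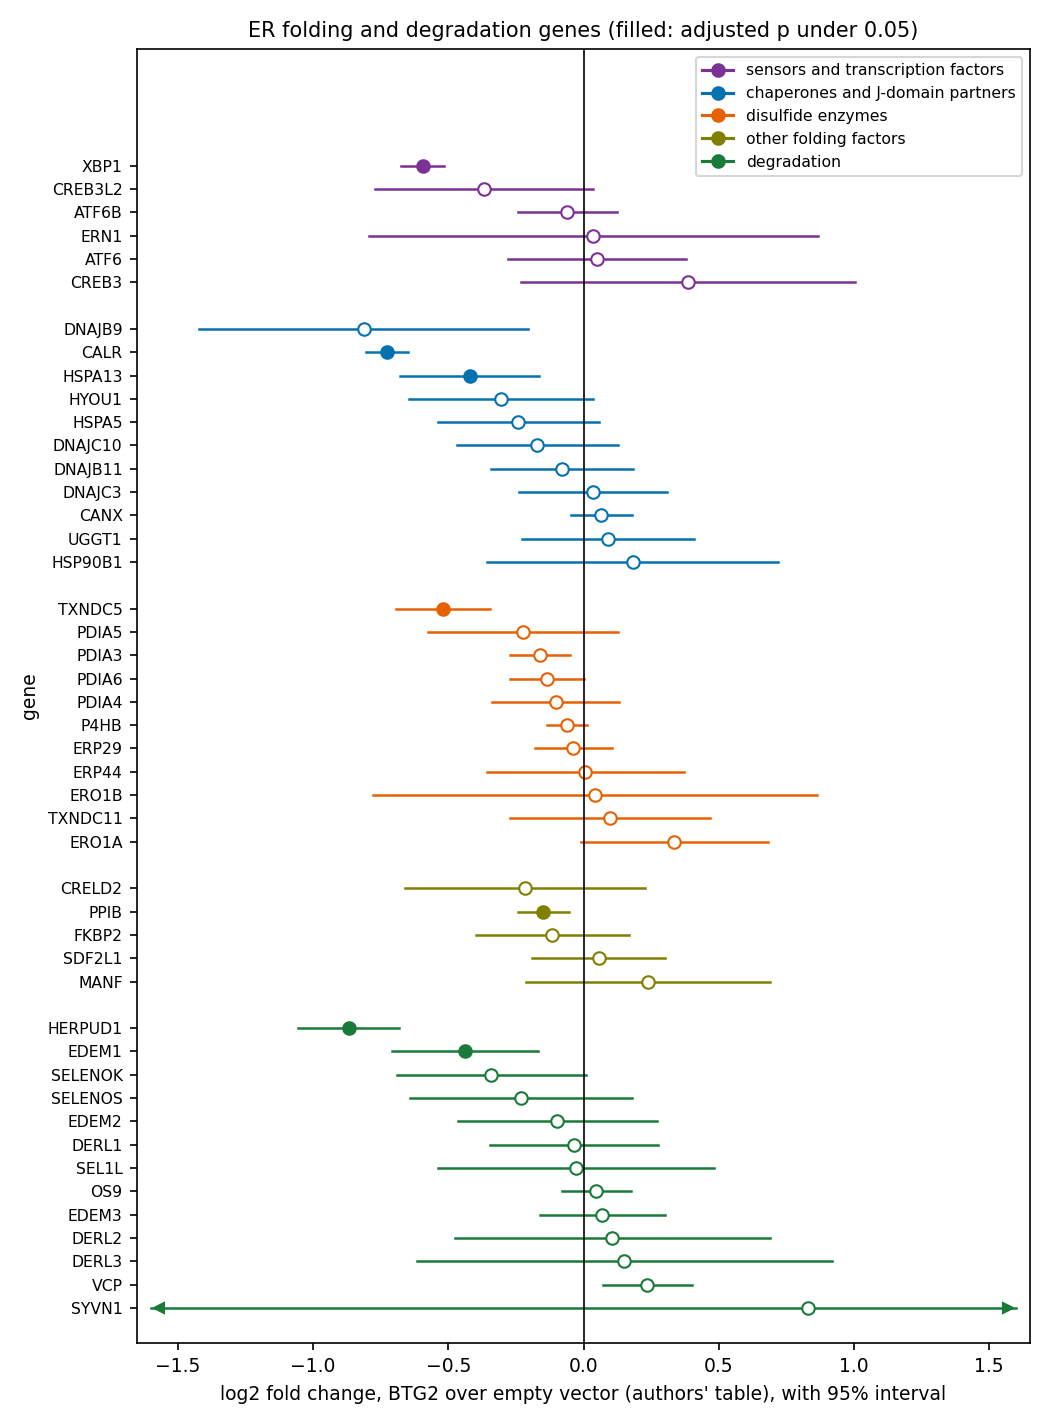
Log2 fold change of each of the 46 genes (x axis, BTG2 over empty vector, from the authors' deposited table) with its 95% interval, grouped by role; filled points have an adjusted p under 0.05. The 7 filled points all lie below 0, and the interval of SYVN1 runs past both edges of the axis (arrows).

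XBP1 carries the message of the IRE1 branch, and its mRNA level fell. XBP1 (chr22:28794555-28800597, minus strand, GENCODE release 29 on hg38) stood at a log2 fold change of -0.59 (SE 0.04, adjusted p = 1.45e-45) per the authors' deposited table. That is 33.8% below the empty vector, with an interval from -0.67 to -0.52, at a mean count of 5758. The value is for the whole gene, so spliced and unspliced XBP1 mRNA are not separated.

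The other sensors and transcription factors did not pass. ERN1, the kinase and ribonuclease that splices XBP1, was at 0.04 (interval -0.79 to 0.87), at a mean count of only 33.6, in the authors' deposited table. ATF6, the membrane-bound factor activated by cleavage, was at 0.05 (-0.28 to 0.38) and its relative ATF6B at -0.06 (-0.24 to 0.12) in the authors' deposited table. For ATF6 and ATF6B these intervals exclude a fall as large as that of XBP1, whereas that of ERN1 does not. CREB3L2 and CREB3, related membrane-bound factors, stood on opposite sides of 0, at -0.37 (-0.77 to 0.03) and 0.39 (-0.23 to 1.00) in the authors' deposited table.

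Among the chaperones the clearest fall was that of calreticulin, a calcium-binding lectin that holds glycoproteins while they fold. CALR (chr19:12938578-12944489, plus strand) had a log2 fold change of -0.73 (SE 0.04, adjusted p = 6.72e-73) per the authors' deposited table, or 39.6% below the empty vector, at a mean count of 9485. Its membrane-bound partner in the same cycle, calnexin, did not share the fall. CANX was at 0.07 (interval -0.05 to 0.18) in the authors' deposited table, so the intervals of the pair lie far apart, though the difference between the 2 genes was not tested. UGGT1, which re-glucosylates unfolded glycoproteins and so returns them to both lectins, was at 0.09 (-0.23 to 0.41) in the authors' deposited table.

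Of the Hsp70 class, only HSPA13 passed. HSPA13, a microsomal Hsp70-like ATPase (chr21:14371115-14383484, minus strand), was at -0.42 (SE 0.13, adjusted p = 0.0211) per the authors' deposited table, 25.3% below the empty vector. HSPA5, or BiP, the main ER Hsp70 was at -0.24 (interval -0.54 to 0.06), and its nucleotide exchange partner HYOU1 at -0.31 (-0.65 to 0.03), in the authors' deposited table. Both values are negative and neither passed. At their SEs a change of 0.44 for HSPA5 and of 0.50 for HYOU1 would have been needed for a call, against the 0.42 by which HSPA13 fell.

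HSP90B1, the ER Hsp90 also called GRP94, was at 0.18 (interval -0.36 to 0.72) in the authors' deposited table. Its mean count there was only 83.1, and per kb of transcript its level ranked at the 36.1 percentile of listed coding genes. It has pseudogene copies: HSP90B2P matches its transcript at 93.5% identity and HSP90B3P at 92.8%. HSP90B2P is listed at a mean count of 9.55 in the authors' deposited table. HSPA5 has 2 such copies of up to 93.7% identity, and PDIA3 has PDIA3P1 at 98.0%, which were not analysed here. In all 11 of the 46 genes match a pseudogene transcript, some only over short stretches. DNAJC10, ERN1 and HERPUD1 match the same pseudogene, AC008626.1, over 248, 252 and 251 bases, so such matches need not be copies of the gene. The sources used here do not say how reads that fit several copies were counted, so the levels of HSP90B1, HSPA5 and PDIA3 are uncertain.

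The J-domain proteins, which recruit and stimulate BiP, spread from -0.81 to 0.04. DNAJB9, a classical IRE1 and XBP1 target that holds IRE1 inactive through BiP, had the second most negative value of the 46 genes, -0.81 (SE 0.31), in the authors' deposited table. By the authors' deposited test it did not pass (adjusted p = 0.0879), at a mean count of 54.2, though its interval from -1.42 to -0.21 excludes 0. DNAJC10, which also reduces disulfides, was at -0.17, DNAJB11 at -0.08 and DNAJC3 at 0.04 in the authors' deposited table, and none of the 3 passed.

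**Figure D2:**
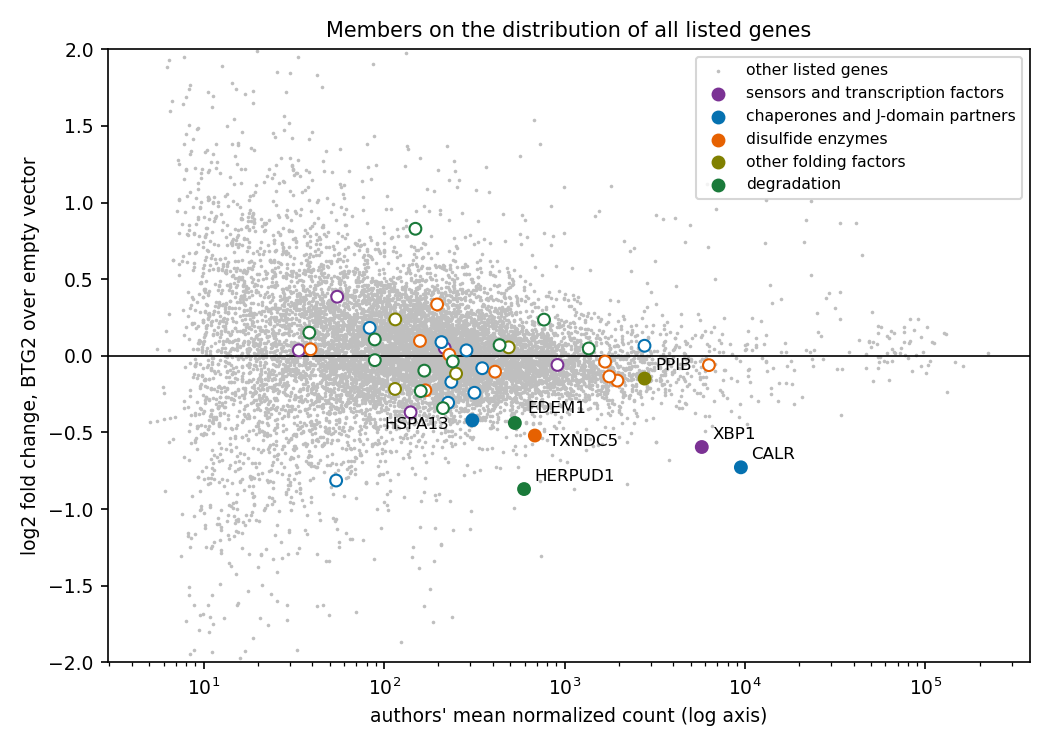
Log2 fold change (y axis, cropped at 2 on either side) against the authors' mean normalized count (x axis, log scale) for all listed genes (grey) and the 46 genes (coloured by role, filled where called). CALR and XBP1 lie well below the grey cloud at their mean counts.

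Of the disulfide enzymes only TXNDC5 passed. TXNDC5, a protein disulfide isomerase with several thioredoxin domains (chr6:7881517-7910814, minus strand), was at -0.52 (SE 0.09, adjusted p = 3.48e-07), or 30.3% below the empty vector, in the authors' deposited table. A read-through gene, BLOC1S5-TXNDC5, shares 2658 exonic bases with it on the same strand and was not analysed here. P4HB, the founding protein disulfide isomerase and also a subunit of prolyl hydroxylase, was at -0.06 (interval -0.13 to 0.01) at a mean count of 6308 in the authors' deposited table, among the narrowest intervals here. PDIA3, which works with calnexin and calreticulin, came near the threshold at -0.16 (adjusted p = 0.0555), and PDIA6 was at -0.13 (-0.27 to 0.00), in the authors' deposited table. PDIA4 at -0.10, PDIA5 at -0.22, ERP29 at -0.04, ERP44 at 0.01 and TXNDC11 at 0.10 did not pass in the authors' deposited table.

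ERO1A and ERO1B, the oxidases that recharge the isomerases, did not pass either. ERO1A was at 0.34 (interval -0.01 to 0.68), the highest of the disulfide enzymes, and ERO1B at 0.04 (-0.78 to 0.86) in the authors' deposited table. The median over the 11 disulfide enzymes was -0.06, against 0.00 over all listed genes and -0.03 over the more abundant ones. Of the 11, 1 was called lower (9.09%) and 0 higher, beside 4.47% and 3.64% of all listed genes.

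Of the other folding factors PPIB passed, by a small change. PPIB (cyclophilin B, a prolyl isomerase of the ER lumen, at chr15:64155812-64163205, minus strand) was at -0.15 (SE 0.05, adjusted p = 0.0309), or 9.77% below the empty vector, at a mean count of 2775 in the authors' deposited table. The call was lost when the authors' deposited fold changes were recentred (recentred value -0.12, adjusted p = 0.110). The prolyl isomerase FKBP2 was at -0.12, CRELD2, which binds folding intermediates, at -0.22, SDF2L1, a partner of BiP and its J-domain proteins, at 0.06, and MANF, a secreted and ER-resident BiP cofactor, at 0.24 in the authors' deposited table. None of these 4 passed.

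In the degradation pathway the largest fall of all 46 genes was that of HERPUD1, a ubiquitin-like membrane protein that joins the HRD1 complex. HERPUD1 (chr16:56932048-56944863, plus strand) was at -0.87 (SE 0.09, adjusted p = 9.94e-18), or 45.2% below the empty vector, at a mean count of 596 in the authors' deposited table. EDEM1, a lectin-like mannosidase that hands glycoproteins to degradation (chr3:5187646-5219957, plus strand), was at -0.44 (SE 0.14, adjusted p = 0.0223), or 26.2% below, in the authors' deposited table. Its paralogs did not pass, with EDEM2 at -0.10 (interval -0.46 to 0.27) and EDEM3 at 0.07 (-0.16 to 0.30) in the authors' deposited table.

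The core of the retrotranslocation machinery gave no call. The adaptor SEL1L was at -0.03 (interval -0.54 to 0.48) and the lectin OS9, which passes substrates to it, at 0.05 (-0.08 to 0.17) in the authors' deposited table. The derlins, membrane proteins of the retrotranslocation channel, were at -0.04 (DERL1), 0.11 (DERL2) and 0.15 (DERL3), and their selenoprotein partners SELENOK and SELENOS at -0.34 and -0.23, in the authors' deposited table. VCP was the nearest to a rise, at 0.24 (SE 0.08, interval 0.07 to 0.40, adjusted p = 0.0546) per the authors' deposited table. It passed after the authors' deposited fold changes were recentred (adjusted p = 0.0244), and when the adjustment ran over the more abundant genes alone (0.0326).

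SYVN1 cannot be read. Its value was 0.83 with an SE of 3.10 at a mean count of 149 in the authors' deposited table, where 2.31% of all listed genes have an SE above 2, at a median mean count of 22.1. SYVN1 is the only one of the 46 with such an SE. Its exons share 398 bases on the same strand with FAU, a ribosomal protein gene listed at a mean count of 22933, and 356 bases with MRPL49 on the opposite strand. Of the 46 genes 25 share exonic bases with another annotated gene, and 12 of them with a gene that is listed. The sources used here do not say whether counting was stranded.

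Precision differed widely between the genes. The smallest absolute score (fold change over SE) among called genes was 2.88, which sets the change each gene needed: from 0.11 to 0.39 for the 7 called genes, and from 0.11 for P4HB to 1.22 for ERN1 among the others, leaving out SYVN1. For 19 of the 39 genes that did not pass it was above 0.5. The intervals of 34 of the 39 nevertheless exclude a fall as large as that of CALR, and those of the other 5 reach it. This concerns falls only, since some of these intervals, such as that of CREB3, extend to rises of that size.

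**Figure D3:**
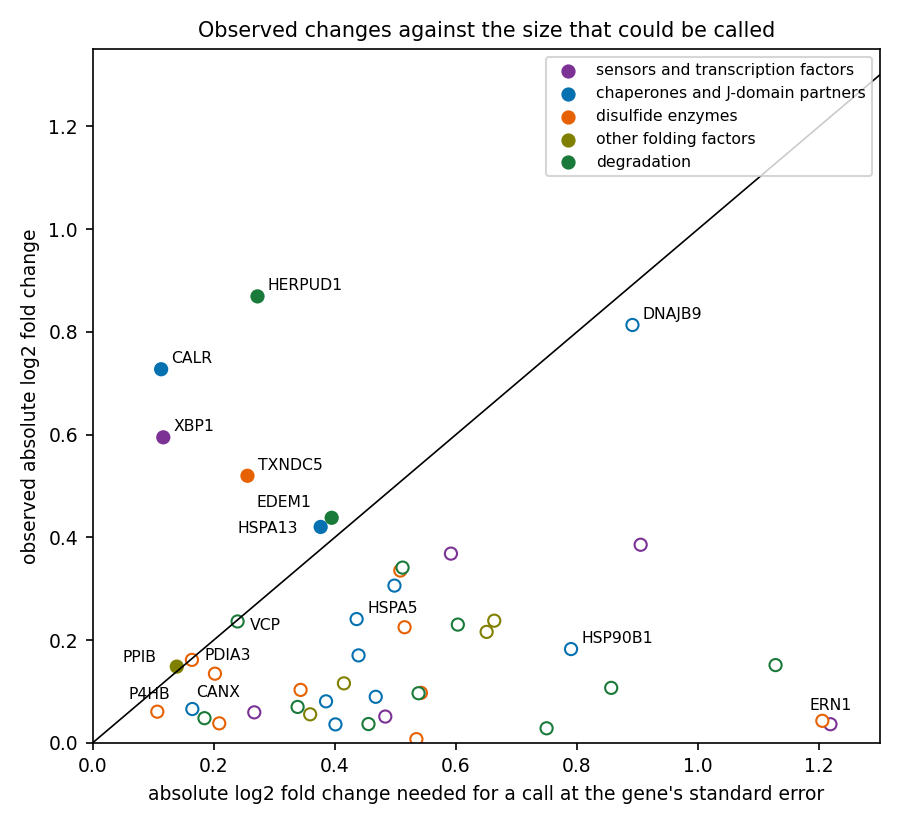
Observed absolute log2 fold change (y axis) against the absolute log2 fold change that a call would have needed at the gene's SE (x axis) for 45 genes, SYVN1 being off the scale; the line marks equality and filled points were called. DNAJB9, VCP and PDIA3 lie just under the line, and HSP90B1 and ERN1 far to its right.

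The calls were also read under other rules, each with its own background over the listed genes. An adjusted p under 0.01 kept 4 of the 46 as lower (background 2.94%) and 0 as higher (2.42%), and asking in addition to the limit of 0.05 for a log2 change of at least 0.5 either way also kept 4 as lower (1.43%) and 0 as higher (1.91%). These were CALR, HERPUD1, TXNDC5 and XBP1 under either rule. An adjusted p under 0.1 gave 9 lower (5.75%), with PDIA3 and DNAJB9 added, and 1 higher (4.79%), which was VCP. Adjusting over the more abundant genes alone, which hold 34 of the 46, gave 8 lower (8.98%) and 1 higher (6.91%). Recentring gave 6 of the 46 lower (3.73%) and 1 higher (4.31%).

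Since the called genes were abundant, the share called was also set against genes of like mean count. Above the 90th percentile of mean counts 3 of 9 ER genes were called lower, against 20.3% of all genes in that band, and between the 75th and 90th percentile 3 of 8, against 7.59%. Between the 50th and 75th percentile 1 of 17 was called lower, against 2.52% of all genes there. Of the 12 genes below the median mean count of 151 none was called by the authors' deposited test, and 1 had an unadjusted p under 0.05. Calls were rare there among all genes too. Below the 25th percentile 1.41% of all genes were called lower and 1.03% higher, and between the 25th and 50th percentile 1.24% and 1.48%. The absence of calls among these 12 genes therefore does not set them apart. With 9, 8 and 17 genes in the upper bands these shares are coarse.

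**Figure D4:**
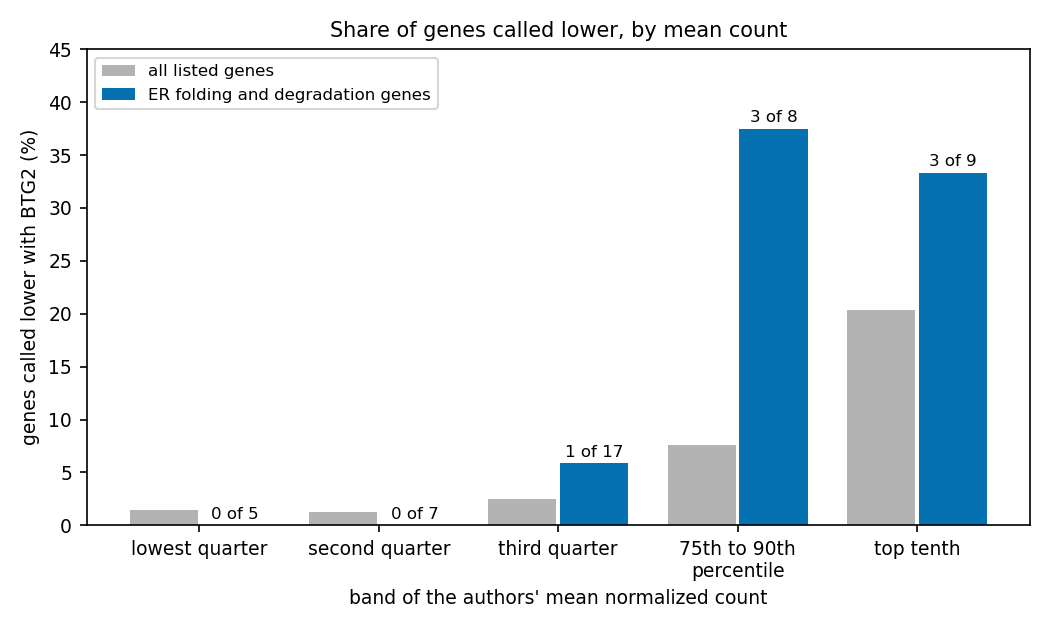
Share of genes called lower with BTG2 (y axis, %) in 5 bands of the authors' mean normalized count (x axis) for all listed genes (grey) and the 46 genes (blue, with counts above the bars). In each of the 3 upper bands the blue bar is the higher one, resting on 1, 3 and 3 genes.

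Abundance per transcript length put 4 of the 46 genes far above the rest. Using the transcript with the longest coding sequence in GENCODE release 29, CALR had a mean count of 4984 per kb, XBP1 3210, PPIB 2568 and P4HB 2423, from the authors' deposited table. Next came ERP29 at 966, PDIA6 at 660 and CANX at 651 per kb, and ERN1 closed the order at 4.27, from the authors' deposited table. Of the top 4 levels, 3 belong to genes that were called lower, and P4HB is the exception. All 4 genes have mean counts above the 90th percentile, where 20.3% of all listed genes were called lower. Smaller changes can be called at high counts, since the SE fell with mean count (Spearman rho -0.98 across all listed genes). Of the 3 genes, PPIB fell by only 9.77% and lost its call on recentring. No spread between libraries was available to say which neighbours in the order per kb differ. If each read is a whole transcript, as in long-read data, a level per kb understates long transcripts. The 7 called genes had a median 3′ UTR of 1573 bases, from 211 to 4039, and the 39 others a median of 1103, from 76 to 17332. Across the 46 genes log2 fold change and 3′ UTR length had a Spearman rho of -0.03, against 0.09 across 10484 listed coding genes, given as a description since all share the same 4 libraries. The rho with mean count was -0.34 across the 46 and -0.13 across all listed genes.

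Genes with and without the elements were among those called. Of the 8 carriers of the ER stress element CALR and XBP1 were called lower, while HSPA5, PDIA6, CRELD2, CANX, ERO1B and HSP90B1 were not, and the median over the 8 was -0.18. Of the 3 carriers of the ER stress element II HERPUD1 was called, HYOU1 was not, and SDF2L1, at 0.06, was on the other side of 0. TXNDC5 was the only carrier of the unfolded protein response element that was called lower. The 28 genes with none of the 3 elements had a median of -0.05, with EDEM1, HSPA13 and PPIB called lower, so 4 of 15 carriers and 3 of 28 others were called lower, beside the background of 4.47%. Carriers were also more abundant, with a median mean count of 490 against 214 for the others, and the groups were not tested against each other.

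**Figure D5:**
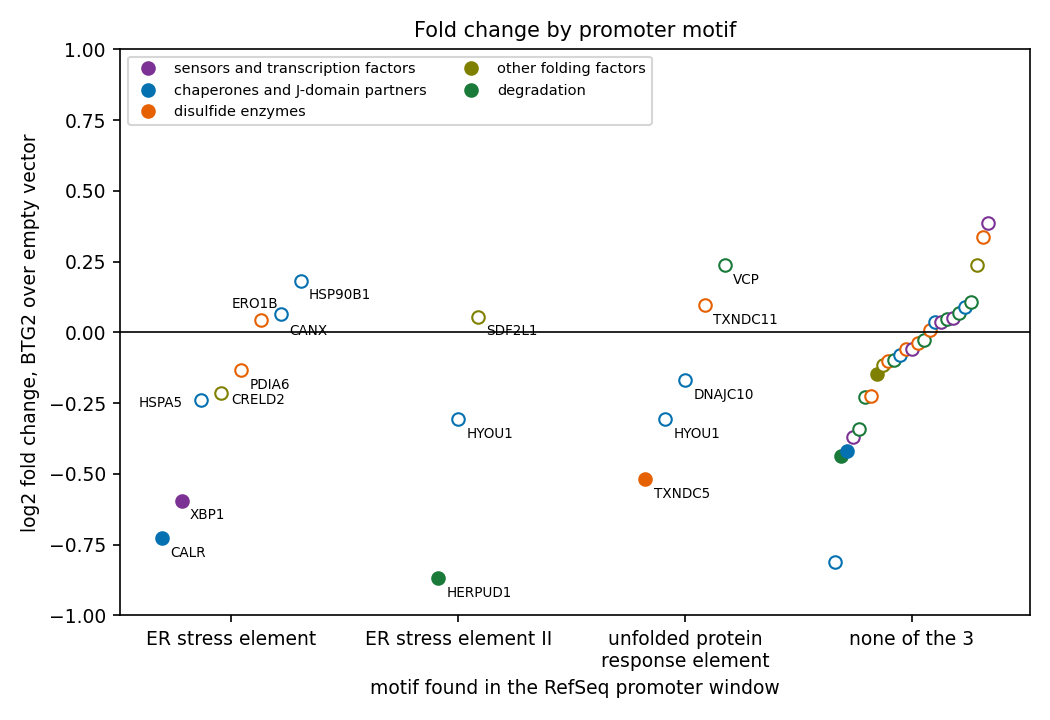
Log2 fold change (y axis, from the authors' deposited table) of the genes that carry each promoter element, with gene names, and of those with none of the 3 (SYVN1 is left out); colours give roles, filled points were called and HYOU1 stands under 2 elements. CALR, XBP1, HERPUD1 and TXNDC5 lead their groups, while the other carriers spread from -0.31 to 0.24.

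Elsewhere in the pathway few genes passed. Of 97 further genes of ER stress signalling, folding and degradation, 83 were listed, and 3 were called lower (3.61%) and 1 higher in the authors' deposited table, beside the background of 4.47% and 3.64%. The 3 lower genes were ATF4, the transcription factor of the PERK branch, at -0.19 (SE 0.04, adjusted p = 4.58e-05), DDIT3 (CHOP), its target, at -0.60 (SE 0.13, adjusted p = 0.000128), and TMBIM6, a membrane protein that restrains IRE1, at -0.18 (SE 0.04, adjusted p = 0.000728), per the authors' deposited table. The higher gene was UBE2G2, a ubiquitin-conjugating enzyme of ER-associated degradation, at 0.59 (SE 0.15, adjusted p = 0.00160) per the authors' deposited table. The median over the 83 genes was -0.04.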

How the data were processed

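Poly(A) RNA of 2 BTG2 and 2 empty vector libraries was measured. The labels' protocols describe paired short reads of 150 bp, the series title long reads; which of them gave the values is unknown. The tools named are minimap2 and the build hg38, per the submitters' processing notes. The authors' mean normalized count is a signal column; fold changes and SEs are deposited on the log2 scale, the deposited score is their ratio, and the deposited p-value its two-sided normal tail, adjusted by Benjamini-Hochberg over the listed genes within 1.48e-06, as checked. The program, normalization and filter behind them, and the depth per library, are unknown. Genes, lists and alternatives were chosen with earlier results of these data known. All 46 genes could be named, and of the other pathway genes those called. Gene models came from GENCODE release 29, matched by Ensembl identifier (the deposited versions differ), and promoters from RefSeq. Copies were pseudogene transcripts matched at 80% identity over 50% of their length with BLAST 2.17.0. Protein features planned for were not analysed here. The recalculated adjustment was tested on simulated data. Python 3.11.15, numpy 2.4.6, pandas 2.3.3 and scipy 1.17.1 were used. Alternatives were a stricter (0.01) and a looser (0.1) limit on the adjusted p, a fold change of at least 0.5 on the log2 scale in either direction, only the more abundant genes (mean count of 151, the median, or more), recentring and, for the median, a weighted mean.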

Additional observations from a re-analysis of the deposited data

How the results depend on the processing

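Of the 7 genes called lower, CALR, HERPUD1, TXNDC5 and XBP1 (4) were kept at an adjusted p under 0.01 and with a minimum absolute log2 fold change of 0.5; under both, 1 chaperone, 1 degradation gene and 0 other folding factors were left. Of the 83 other pathway genes 1 was lower with that minimum, against 1.43% of all listed genes. At an adjusted p under 0.1 there were 9 lower, 2 of them disulfide enzymes, and 1 higher, VCP (degradation: 1). Of the 83 other pathway genes 6 were lower and 2 higher at that limit, beside 5.75% and 4.79% of all listed genes. Adjusting over the more abundant genes alone, 34 of the 46, gave 8 lower (disulfide: 2), 1 higher (degradation: 1) and 5 other pathway genes lower. Of all genes in that setting 8.98% were lower and 6.91% higher. Recentring by the median abundant gene (-0.03) left 6 lower, with 0 other folding factors, and 1 higher (degradation: 1), with 2 other pathway genes higher; over all genes it gave 433 lower and 500 higher, against 518 and 422. The mean of the 46 fold changes weighted by precision was -0.24, against a median of -0.06, and -0.10 without CALR and XBP1, an alternative chosen after seeing the data. No paired analysis was possible because values per library were not analysed here, and for the same reason libraries could not be left out in turn. Genes with wide SEs limit what the counts can show.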

Other observations

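The ER stress elements also occur in listed genes outside the 46. Of 16 such genes, with a median log2 fold change of 0.02, 0 were called lower and 0 higher by the authors' deposited test. The shares over all listed genes are 4.47% and 3.64%. At an unadjusted p under 0.05 in that test 3 of the 16 were lower, against 9.64% of all listed genes. Those 3 were SERP1, which stabilises membrane proteins at the translocon, at -0.14 (SE 0.06, adjusted p = 0.161), SETD3, an actin histidine methyltransferase, at -0.27 (SE 0.13, adjusted p = 0.224), and SHCBP1 at -0.41 (SE 0.20, adjusted p = 0.250) per the authors' deposited table. ALG12, a mannosyltransferase of N-glycan assembly whose exons share 168 bases with CRELD2 on the opposite strand, was at 0.41 (SE 0.60), and FICD, which AMPylates BiP, at 0.14 (SE 0.91) in the authors' deposited table.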
